A study of Drosophila melanogaster with 12 samples.

Results

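The genes described here belong to insulin and target of rapamycin (TOR) signalling in the midgut of adult Drosophila melanogaster. They were chosen by name: Ilp3, InR, chico, foxo, Thor, S6k, Tor, Tsc1 and ImpL2. Of these 9 symbols, 7 were found among the 17558 rows of the count table, and InR and S6k were not analysed here. RNA was sequenced from whole midguts of virgin females and males in 4 groups of 3 libraries. The flies were 10 days old and had spent 6 days at 18C followed by 4 days at 29C. The treated groups carried dsxRNAi, an RNA interference construct against the sex determination gene dsx, together with mex1-Gal4 and tub-Gal80ts, on a y[1] v[1] / w[*] background. The control groups carried mex1-Gal4, tub-Gal80ts and UAS-GFP on the background labelled in the same way. Thus all 4 groups carried the driver and its temperature-sensitive repressor, and the control groups expressed GFP in place of the hairpin. The mex1-Gal4 driver acts in enterocytes, the absorptive cells, whereas the RNA came from every cell type of the organ. The RNA interference and the rest of the stock that carries it cannot be told apart, and fewer cells of a type cannot be told from less RNA per cell. The labels do not say that the libraries came from separate pools of flies, so p-values measure the spread between these samples.

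Insulin-like peptides bind the insulin receptor, and the substrate protein chico passes the signal to PI3 kinase and Akt. Akt keeps the transcription factor foxo out of the nucleus, and foxo in turn activates genes such as Thor. TOR kinase joins insulin and amino acid signals, is restrained by the Tsc1 complex, and drives growth partly by inactivating Thor, the 4E-BP repressor of translation. ImpL2 is a secreted protein that binds insulin-like peptides and limits their action. In the fly midgut the pathway is known for its part in the nutrient response of stem cells and in gut growth.

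Total counts ran from 36212113 to 45068874 per library, and levels are given as normalised CPM, the counts relative to the scaled library size. The targeted gene, dsx, was at 39.8 ± 4.14 normalised CPM in dsxRNAi males and 60.8 ± 8.58 in control males (SD, n = 3 each), and at 19.5 ± 2.94 in dsxRNAi females and 20.1 ± 1.36 in control females. One library stood apart: control male 1 held 6268 reads of 14 genes of the male accessory gland, and the other 11 libraries held 2 to 13 each. The summed level of 10 enterocyte markers ran from 76870 to 93030 normalised CPM in dsxRNAi males and from 57910 to 63000 in control males. Most of that difference was in the amylase genes Amy-p, at 22530 and 13200 on average, and Amy-d, at 19640 and 11480, which were the 2 of 10 called and are near-identical copies whose reads the counting could split. Of the markers not called, nub, at 144 and 172, mesh, at 916 and 1017, and Myo31DF, at 509 and 558, had lower means in dsxRNAi males. The means of mex1 (238 and 189), betaTry (11220 and 8587), alphaTry (26040 and 23400), Myo61F (1616 and 1451) and Ssk (476 and 466) were higher. Of all tested genes 8.05% were called upward in males. In females these sums were 60020 to 62980 under dsxRNAi and 45220 to 62290 in controls. A gene counts as called where its adjusted p is below 0.05 in edgeR's quasi-likelihood test, with Benjamini-Hochberg adjustment over 9686 tested genes, and every adjusted p below is from that test unless DESeq2 is named.

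The 7 genes differed widely in level. Per kilobase of exon, Thor was highest, at 694 ± 79.1 normalised CPM per kb in control males (SD, n = 3). It was followed by foxo at 44.8 ± 2.28 and chico at 13.7 ± 0.45 on the same scale. ImpL2 at 9.77 ± 3.15 and Tsc1 at 9.64 ± 0.41 did not differ beyond their spread, and Tor was at 5.94 ± 0.16. Ilp3 was last, at 0.0103 ± 0.0178 per kb in control males and 1.74 ± 0.15 in dsxRNAi females. All 7 passed the expression filter, but Ilp3 passed it only through the dsxRNAi groups, where it was high, so a count over the tested genes is not independent of its difference.

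Ilp3 encodes an insulin-like peptide and lies on chromosome 3L at 9801298 to 9802120 (dm6), in a cluster with other peptide genes. The raw read counts were 58, 48 and 56 in dsxRNAi females, and 0, 2 and 0 in control females. They were 20, 20 and 15 in dsxRNAi males, and 1, 0 and 0 in control males. Each dsxRNAi library lay above each control library of its sex. Summed over libraries and scaled, Ilp3 was 84.2-fold higher in dsxRNAi than control females, with an exact 95% interval of 22.9 to 701 that covers counting error only. In males the ratio was 66.6, with an interval of 11.5 to 2680. The adjusted p was 0.000153 in females and 0.00054 in males. With a minimum count of 50 the gene was not tested, and every other alternative kept both calls.

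Ilp3 was higher in dsxRNAi females than in dsxRNAi males. The levels were 1.35, 1.18 and 1.39 normalised CPM in the females and 0.564, 0.513 and 0.443 in the males, without overlap. The ratio was 2.57, with a counting interval of 1.88 to 3.56 and an adjusted p of 0.0482. This call was close to the threshold. It held in 6 of the 20 alternatives that tested the gene, and among the others it was lost with RLE scaling (0.0512), without an expression filter (0.109), and without any 1 of the 6 dsxRNAi libraries, control female 3 or any 1 control male, where the adjusted p ran from 0.0507 to 0.145. The dsxRNAi effect itself did not pass the test for a difference between the sexes (adjusted p = 0.953). The computed interval of the log2 difference, from -5.68 to 6.79, is only a rough guide, since the control libraries were at or near 0 counts.

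The other insulin-like peptide genes gave few reads. Of its neighbours in the cluster, Ilp1 and Ilp2 had 0 counts in every library, Ilp4 had 0 to 3 and Ilp5 had 0 or 1. CG32052, whose annotated span on the opposite strand contains Ilp3, and Zasp67, which lies beside the cluster, had 0 to 3 counts per library each. Visceral muscle is a known source of Ilp3 in the fly gut. The summed level of 16 visceral muscle markers was 2706 to 2938 normalised CPM in dsxRNAi females and 2453 to 2940 in control females, and it was 2947 to 3101 in dsxRNAi males and 2946 to 3012 in control males. Of these 16 markers 0 were called in females, where 5 had an unadjusted edgeR p under 0.05, and 1 was called lower in males. Of all tested genes 1399 of 9686 had such a p in females, where 3.46% were called, and 6.59% were called lower in males. The part of visceral muscle in the Ilp3 levels was not tested.

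**Figure D1:**
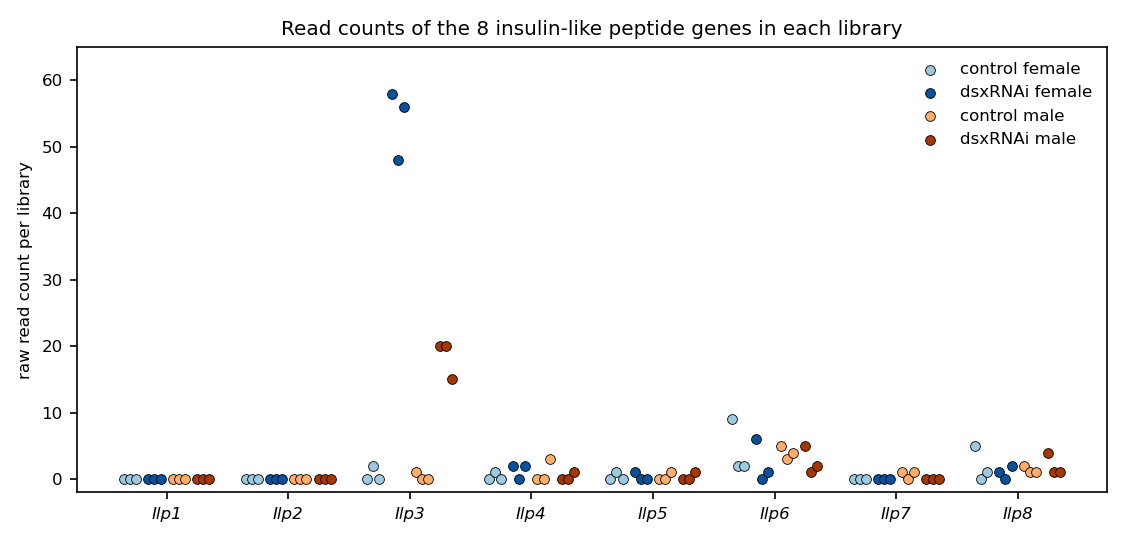
Raw read counts of the 8 insulin-like peptide genes, 1 point per library, coloured by group; the vertical axis is the count per library. Ilp3 has 48 to 58 reads in dsxRNAi females and 15 to 20 in dsxRNAi males, against 0 to 2 in the control libraries.

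ImpL2, the secreted peptide-binding protein, lies on chromosome 3L at 4224006 to 4236147. Its levels were 10.9, 5.001 and 8.60 normalised CPM in dsxRNAi males and 19.1, 23.7 and 35.4 in control males. In females they were 14.5, 14.7 and 28.8 under dsxRNAi and 33.0, 13.5 and 20.1 in controls. The male groups did not overlap and the female groups did. ImpL2 fell by 1.68 on the log2 scale in males (95% interval -2.69 to -0.68, adjusted p = 0.0349), which is 3.20-fold lower. The log2 change in females was -0.20 (adjusted p = 0.908). Under dsxRNAi females minus males gave 1.25 (interval 0.25 to 2.25), which missed the threshold in edgeR (adjusted p = 0.0928) and passed it in DESeq2 (0.0407), and in controls the value was -0.23 (adjusted p = 0.75). The difference between the female and male effects, 1.48, did not pass the test (unadjusted p = 0.0386, adjusted p = 0.316).

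The libraries of a group were far apart for ImpL2, with coefficients of variation of 32.3 to 44.6%, where the median over all tested genes was 7.67 to 11%. The male call was lost without dsxRNAi male 1 (adjusted p = 0.0583), dsxRNAi male 2 (0.109), dsxRNAi male 3 (0.0912), control male 2 (0.0752) or control male 3 (0.115), and without an expression filter (0.0677). Summed progenitor markers were 106 to 133 normalised CPM in dsxRNAi males and 146 to 187 in control males. Of the 10 genes 2 were called lower, where 6.59% of all tested genes were, and their median log2 change was -0.368. Control female 1, control male 3 and dsxRNAi female 3 each had both the highest ImpL2 and the highest progenitor sum of their group, with sums of 168, 187 and 148. Among dsxRNAi males ImpL2 was highest in replicate 1 and the progenitor sum in replicate 3. The part of these cells in the result was not tested. In the annotation 61.9% of the exon bases of ImpL2 are shared with CG46460 on the same strand. The count table has no row for CG46460, and whether its reads were counted as ImpL2 is not known, so the ImpL2 count is uncertain.

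**Figure D2:**
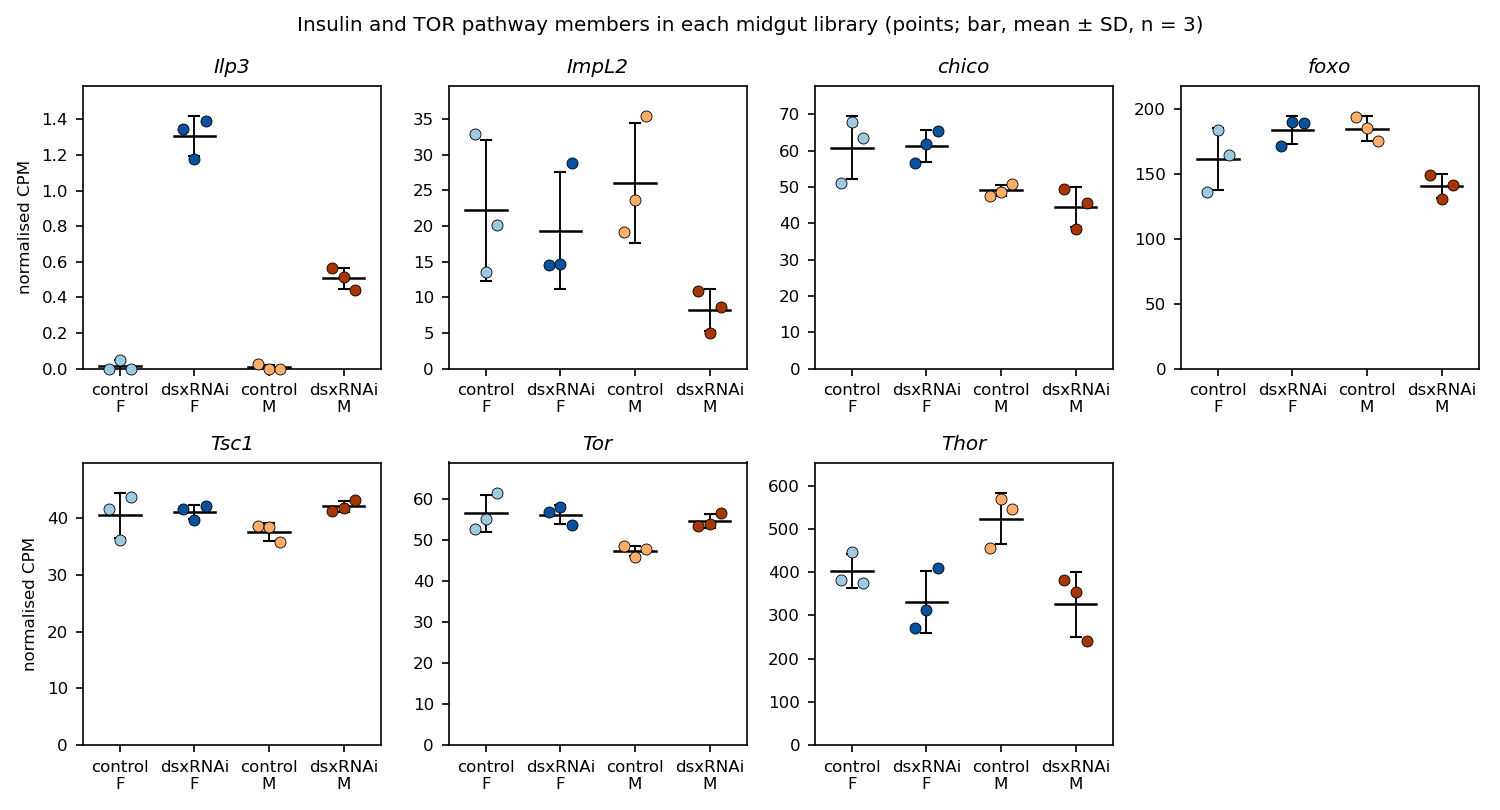
Normalised CPM of the 7 genes in each library (points), with the mean (bar) and SD (whisker) of 3 libraries per group; F is female and M is male, each vertical axis starts at 0, and whiskers that reach below 0 are cut there. The dsxRNAi males lie below the control males for ImpL2, foxo and Thor, and the dsxRNAi groups lie above both control groups for Ilp3.

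The substrate protein gene chico lies on chromosome 2L at 10242512 to 10247078. Its levels were 56.5, 61.9 and 65.4 normalised CPM in dsxRNAi females and 51.2, 67.8 and 63.5 in control females. In males they were 49.4, 38.4 and 45.4 under dsxRNAi and 47.6, 48.7 and 50.8 in controls. All female libraries were above all male libraries, and the genotypes overlapped within each sex. The sex difference was called under dsxRNAi, with a log2 value of 0.46 for females minus males (95% interval 0.22 to 0.71, adjusted p = 0.0172). In controls it was 0.31 (interval 0.07 to 0.55, adjusted p = 0.0672), which passed the threshold without control female 1 (0.0126), dsxRNAi male 1 (0.0475) or dsxRNAi male 2 (0.0316). These values were not shown to differ from each other, since the interaction was 0.15 (adjusted p = 0.714). The antisense gene asRNA:CR44995, which overlaps 10.6% of the exon bases of chico, had 2 counts in all libraries together. The call under dsxRNAi was lost without dsxRNAi female 3 (adjusted p = 0.0704) or dsxRNAi male 2 (0.0671).

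The transcription factor gene foxo lies on chromosome 3R at 14056945 to 14087978. Its levels were 149, 131 and 141 normalised CPM in dsxRNAi males and 194, 185 and 175 in control males, without overlap. In females they were 172, 190 and 190 under dsxRNAi and 136, 184 and 165 in controls, with overlap. In males foxo fell by 0.40 on the log2 scale, or by 24.1% (95% interval of the log2 change -0.62 to -0.17, adjusted p = 0.0224). The female log2 change was 0.19 (interval -0.04 to 0.41, adjusted p = 0.457). Females exceeded males under dsxRNAi by 0.39 (adjusted p = 0.0274), whereas in controls the log2 value was -0.20 (adjusted p = 0.206).

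The difference between the female and male foxo effects was 0.59 on the log2 scale (interval 0.27 to 0.90, unadjusted p = 0.00164). It missed the threshold in edgeR (adjusted p = 0.0941) and passed it in DESeq2 (adjusted p = 0.0137) and in edgeR without control female 2 (0.0449). The male fall was lost without dsxRNAi male 2 (adjusted p = 0.0756), dsxRNAi male 3 (0.0608), control male 1 (0.0759) or control male 2 (0.07). The sex difference under dsxRNAi was lost without dsxRNAi female 2 (0.0787), dsxRNAi female 3 (0.0917), dsxRNAi male 2 (0.0962) or dsxRNAi male 3 (0.0613). In males summed enteroendocrine markers were also lower, at 675 to 736 normalised CPM under dsxRNAi and 842 to 877 in controls. Of these 15 genes 6 were called lower, whereas Gpb5, NPF and Dh31 had higher means under dsxRNAi. Summed neuron markers were 35.95 to 39.7 under dsxRNAi and 47.2 to 51.5 in controls, with 1 of 5 genes called lower. Summed Malpighian tubule markers were 32.1 to 35.01 and 49.6 to 57.9, with 2 of 3 tested genes called lower. Of all tested genes 6.59% were called lower in males. Summed fat body and hemocyte markers overlapped, at 17.95 to 24.3 under dsxRNAi and 18.9 to 24.9 in controls, with 1 of 8 tested genes called lower. Summed trachea markers also overlapped, at 19.4 to 25.3 and 23.7 to 25.5, with 1 of 4 tested genes called lower. The part of these cell types in the male falls of foxo, Thor and ImpL2 was not tested.

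Thor, the translational repressor downstream of TOR and a described foxo target, lies on chromosome 2L at 3478434 to 3479612. Its levels were 383, 354 and 240 normalised CPM in dsxRNAi males and 457, 570 and 545 in control males, without overlap. In females they were 270, 312 and 410 under dsxRNAi and 383, 447 and 375 in controls, with overlap. In males Thor fell by 0.69 on the log2 scale, or by 37.9% (95% interval of the log2 change -1.09 to -0.28, adjusted p = 0.0276). The sex difference was -0.38 in controls (adjusted p = 0.169) and 0.02 under dsxRNAi (adjusted p = 0.947). The female log2 change was -0.28 (adjusted p = 0.558), and the difference between the sexes in that effect was 0.41 (adjusted p = 0.529). The male call was lost without dsxRNAi male 2 (adjusted p = 0.0509), dsxRNAi male 3 (0.0827), control male 2 (0.0986) or control male 3 (0.085).

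The TOR kinase gene, Tor, lies on chromosome 2L at 13004480 to 13013197. Its levels were 48.5, 45.96 and 47.8 normalised CPM in control males, below every library of the other groups. They were 53.5, 53.9 and 56.6 in dsxRNAi males, 52.7, 55.3 and 61.6 in control females, and 57.0, 58.1 and 53.6 in dsxRNAi females. Females exceeded males in controls by 0.25 on the log2 scale (95% interval 0.11 to 0.40, adjusted p = 0.0194). Under dsxRNAi the value was 0.04 (adjusted p = 0.725), and the 2 sex differences were not shown to differ (unadjusted p = 0.0463, adjusted p = 0.338). The call in controls was lost without control female 3 (adjusted p = 0.0856) or control male 2 (0.0757).

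The log2 change of Tor in males was 0.21 (interval 0.06 to 0.35). It missed the threshold (adjusted p = 0.0636) and passed it in DESeq2 (0.0324), with a minimum count of 50 (0.0472) and in a fit of the male groups alone (0.0404). It also passed without dsxRNAi female 2 (0.0494) or without any 1 control female (0.0422 to 0.0459). Tsc1, whose protein restrains TOR, lies on chromosome 3R at 24130307 to 24134654. Its levels were 41.3, 41.8 and 43.1 normalised CPM in dsxRNAi males and 38.6, 38.4 and 35.7 in control males, without overlap. The log2 change was 0.16 (interval 0.01 to 0.32) and did not pass the test (adjusted p = 0.153). Female levels ran from 39.7 to 42.1 under dsxRNAi and from 36.1 to 43.7 in controls, with a log2 change of 0.02 (adjusted p = 0.946). The sex difference of Tsc1 was 0.11 in controls (adjusted p = 0.322), which passed the threshold without control female 2 (0.0425), and -0.03 under dsxRNAi (adjusted p = 0.792).

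In females 1 of the 7 genes, Ilp3, was called between dsxRNAi and control, where 3.46% of all tested genes were called, 1.91% upward and 1.55% downward. The female groups did not overlap for 1 of the 7, against 17% of all tested genes. The gene in each of these counts was Ilp3. It passed the expression filter only through the dsxRNAi groups, so the female and male counts that include it are not independent of its difference. In males 4 were called, Ilp3 upward and ImpL2, foxo and Thor downward, where 14.6% of all tested genes were called, 8.05% upward and 6.59% downward. The male groups did not overlap for 6 of the 7 genes, against 38.6% of all tested genes. Between control females and control males Tor was called, where 20% of tested genes were, 10.7% higher in females and 9.27% lower. Those groups did not overlap for 3 of the 7 genes, against 37.4% of all tested genes. Between dsxRNAi females and dsxRNAi males 3 were called, Ilp3, chico and foxo, all higher in females, where 14.8% of tested genes were called, 7.76% higher in females and 7.06% lower. Those groups did not overlap for 4 of the 7, against 35.7%. The interaction called 0 of the 7 genes in edgeR and 1, foxo, in DESeq2, which called 344 genes in all. An unadjusted edgeR p under 0.05 was found for 3 of the 7 and for 1387 of all 9686 tested genes. In edgeR the interaction called 0.805% of all tested genes, 0.258% with a positive and 0.547% with a negative difference.

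**Figure D3:**
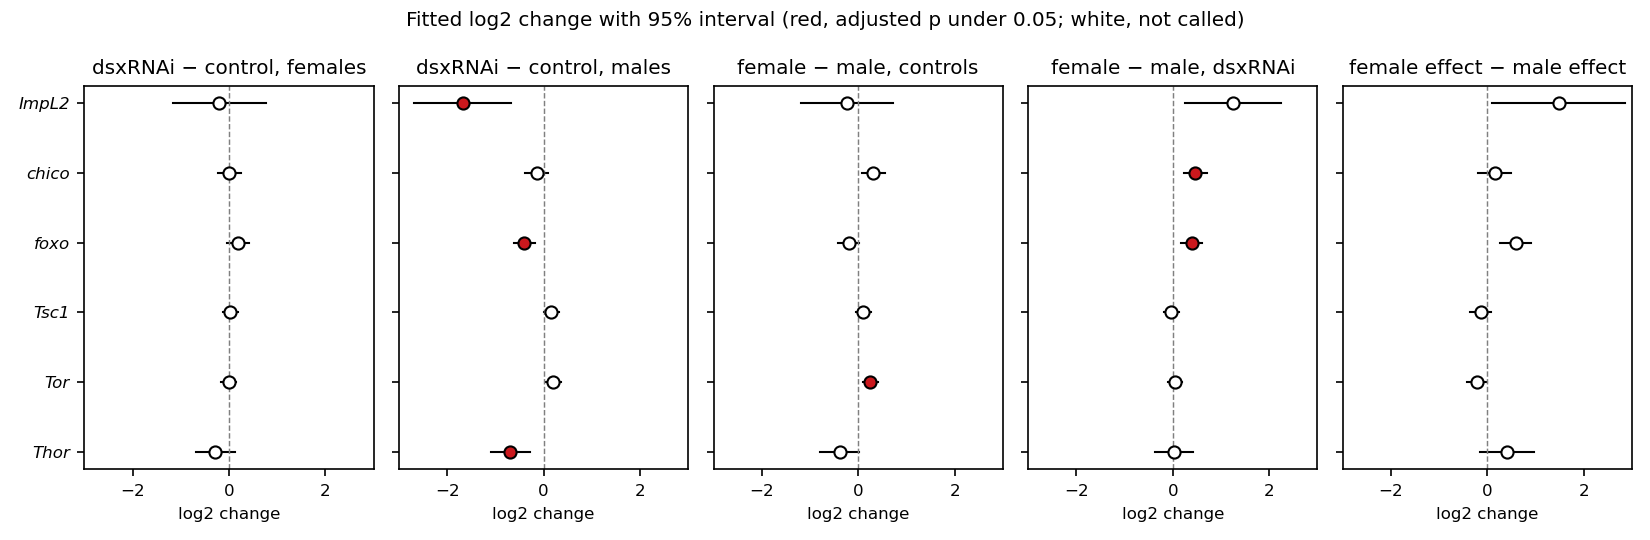
Fitted log2 changes (points) with 95% intervals (lines) for 6 of the genes in the 5 comparisons; red points passed an adjusted p of 0.05 and white points did not. Ilp3 is left out because it is at or near 0 counts in controls; ImpL2, foxo and Thor are red in males, and no point is red in females.

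Among the other genes of the insulin branch, from the peptides' secreted regulators to foxo's upstream kinases, 12 were tested. In females and in males 0 were called by edgeR between genotypes, with 1 and 4 at an unadjusted p under 0.05, and DESeq2 called 0 and 1. Over all 9686 tested genes edgeR called 3.46% in females and 14.6% in males, and 1399 and 2850 had an unadjusted p under 0.05. Between control females and control males 2 of the 12 were called, a share of 16.7% where all tested genes gave 20%. Between the sexes under dsxRNAi 2 were called, again 16.7%, where all tested genes gave 14.8%. Sdr, a secreted decoy of the insulin receptor, was lower in control females than control males. Its levels were 1.502, 1.36 and 1.25 normalised CPM in the females and 2.48, 2.90 and 2.39 in the males, with a log2 value of -0.92 (adjusted p = 0.00406). Akt1, the kinase that inhibits foxo, was higher in dsxRNAi females than dsxRNAi males. Its levels were 81.0, 90.3 and 90.2 normalised CPM in the females and 66.3, 62.5 and 69.8 in the males, with a log2 value of 0.40 (adjusted p = 0.0242). This call was lost without dsxRNAi female 2 (0.0773), dsxRNAi female 3 (0.0837), dsxRNAi male 1 (0.0612) or dsxRNAi male 2 (0.0929). The phosphatase gene Ptp61F was higher in females in controls (log2 value 0.21, adjusted p = 0.0412) and under dsxRNAi (0.29, adjusted p = 0.0153). The first of these calls was lost without control female 1, control female 3, control male 1 or control male 2 (adjusted p 0.0944 to 0.135), and the second without dsxRNAi female 3, dsxRNAi male 1 or dsxRNAi male 2 (0.056 to 0.0665). The interaction called 0 of the 12 genes in edgeR and in DESeq2, with 3 at an unadjusted edgeR p under 0.05. Of all 9686 tested genes 1387 had such a p for the interaction, and edgeR called 0.805%.

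The TOR branch covers the TOR complexes, their inputs and outputs and amino acid sensing. Of its 34 other tested genes, 0 were called in females by edgeR and by DESeq2, with 4 at an unadjusted edgeR p under 0.05. Over all 9686 tested genes edgeR called 3.46% in females, and 1399 had such an unadjusted p. In males slif and Lkb1 rose and REPTOR-BP fell, a called share of 8.82%, below the 14.6% of all tested genes. The amino acid transporter gene slif lies on chromosome 3L at 22881045 to 22893821. Its levels were 185, 152 and 183 normalised CPM in dsxRNAi males and 63.3, 57.0 and 45.8 in control males. In females they were 157, 210 and 155 under dsxRNAi and 118, 185 and 136 in controls. Only the control males lay apart from the other groups. In males slif rose by 1.65 on the log2 scale (95% interval 1.25 to 2.05, adjusted p = 0.000167), or 3.14-fold, and this call held without any 1 library. The female log2 change was 0.25 (adjusted p = 0.616).

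The slif effect differed between the sexes, by -1.40 on the log2 scale (female minus male, interval -1.96 to -0.84, adjusted p = 0.0333). Of the 34 genes slif was the 1 called in this test, a share of 2.94% where all tested genes gave 0.805%. That call was lost without any 1 of dsxRNAi female 1, dsxRNAi female 3, control female 3, dsxRNAi male 1, dsxRNAi male 3, control male 2 or control male 3, with adjusted p from 0.0635 to 0.101. In controls slif was higher in females by 1.40 (adjusted p = 0.000471), and under dsxRNAi the sex difference was 0.00 (adjusted p = 0.995). Lkb1, a kinase upstream of AMPK, rose in males by 0.25 on the log2 scale (adjusted p = 0.0219), a call lost without control male 2 (0.0583) or control male 3 (0.0938). In the annotation 5.06% of its exon bases lie antisense to CG9588, and the strand setting of the counting is not known, so its count is uncertain to that extent. REPTOR-BP, a partner of the TOR-repressed transcription factor REPTOR, fell by 0.33 (adjusted p = 0.0466), a call lost without any 1 of 9 libraries, which were the dsxRNAi females, control females 2 and 3, dsxRNAi males 2 and 3 and control males 2 and 3, with adjusted p from 0.0513 to 0.169.

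Between control females and control males 6 of the 34 TOR branch genes were called higher in females and 0 were called lower. Those called were slif, RpS6, rictor, Rheb, Lst8 and Sesn. The called share was 17.6% where all tested genes gave 20%. Of 21 alternatives the call held in 21 for slif and RpS6, 20 for rictor, 15 for Lst8, 13 for Rheb and 6 for Sesn. RpS6, the ribosomal protein phosphorylated downstream of S6 kinase, was at 1315, 1755 and 1672 normalised CPM in control females and 1037, 1033 and 962 in control males. Its log2 value was 0.65 (adjusted p = 0.00221), and the call held without any 1 library. On the same strand RpS6 shares 11.9% of its exon bases with snoRNA:Or-aca2 and 5.02% with the pseudogene CR33222. These had 0 and 180 counts in all libraries together. The count of higher genes in controls fell to 3 without control female 3 or any 1 control male. The count of lower genes was 1 without dsxRNAi female 2, dsxRNAi female 3 or control female 1, and 2 without control female 2. Under dsxRNAi 3 were called higher in females, Rheb, Sesn and AMPKalpha, and Lkb1 was called lower. This called share was 11.8% where all tested genes gave 14.8%. Of 21 alternatives these calls held in 19 for AMPKalpha and Lkb1, 17 for Sesn and 13 for Rheb. The count of higher genes was 1 without dsxRNAi female 3 or dsxRNAi male 3 and 6 without control female 1.

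**Figure D4:**
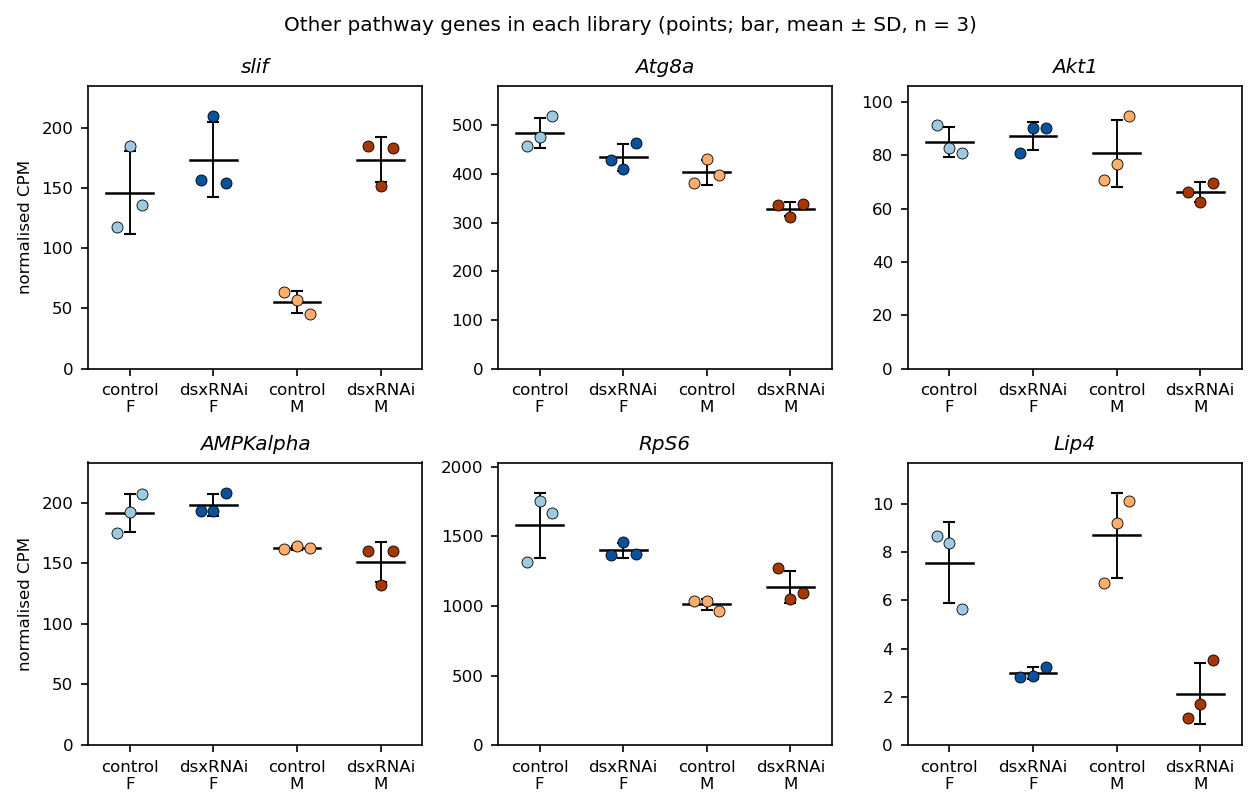
Normalised CPM of 6 other pathway genes in each library (points), with the mean (bar) and SD (whisker) of 3 libraries per group; F is female, M is male and each vertical axis starts at 0. Control males, at 45.8 to 63.3, are the low group for slif, and both dsxRNAi groups are low for Lip4.

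Autophagy is inhibited by TOR and needs the Atg genes. Of 21 tested autophagy genes, 0 were called in females by edgeR and by DESeq2, with 1 at an unadjusted edgeR p under 0.05. Over all 9686 tested genes edgeR called 3.46% in females, and 1399 had such an unadjusted p. In males 1 of the 21 was called, a share of 4.76% where all tested genes gave 14.6%. It was Atg8a, whose protein is joined to the autophagosome membrane, and it fell by 0.30 on the log2 scale (adjusted p = 0.0333). Its levels were 336, 312 and 338 normalised CPM in dsxRNAi males and 381, 432 and 397 in control males. This call was lost without any 1 dsxRNAi male, control male 2 or control male 3, with adjusted p from 0.0757 to 0.144.

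Under dsxRNAi 7 of the 21 autophagy genes were called higher in females than males, a share of 33.3% against 7.76% of all tested genes. They were Atg1, Atg2, Atg6, Atg8a, Atg9, Atg17 and Atg101. Atg1, the kinase that starts autophagy, was at 76.3, 82.0 and 82.4 normalised CPM in dsxRNAi females and 62.9, 51.3 and 64.96 in dsxRNAi males, with a log2 value of 0.43 (adjusted p = 0.00926). The calls of Atg1 and Atg8a held without any 1 library. Atg6 was called in 3 of 21 alternatives and was lost without any 1 of 11 libraries, all but control female 1. Atg2 was called in 8 of 21 and was lost without any 1 dsxRNAi library or control male. The count fell to 4 without dsxRNAi female 2, 2 without dsxRNAi female 3, 3 without dsxRNAi male 2 and 4 without dsxRNAi male 3. In controls 3 of the 21 were called higher in females, Atg8a, Atg9 and Atg101, a share of 14.3% against 10.7% of all tested genes. The control count was 0 without control female 3 or control male 1 and 1 without control male 2. The median log2 value of the list was 0.13 under dsxRNAi and 0.0581 in controls, where over all tested genes it was 0.0104 and -0.00536.

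**Figure D5:**
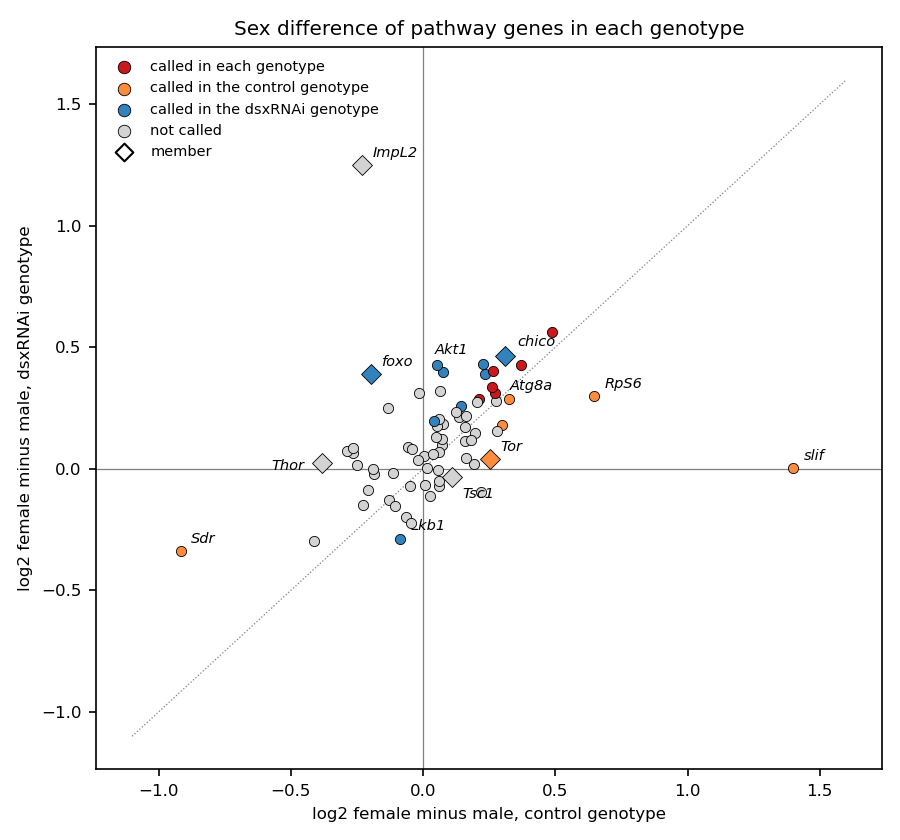
Log2 difference of females minus males in controls (horizontal axis) and under dsxRNAi (vertical axis) for 67 other pathway genes (circles) and 6 of the chosen genes (diamonds). Colour gives the genotype in which the difference was called, and the dotted line marks equal values. The gene slif lies at 1.40 and 0.00, ImpL2 at -0.23 and 1.25, and chico at 0.31 and 0.46.

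Of the genes described as foxo targets, 4 were tested beside Thor. In females 2 were called, 1 upward and 1 downward, where 3.46% of all tested genes were called. In males 3 were called, 2 upward and 1 downward, where 14.6% of all tested genes were called. The gene called between genotypes in neither sex was Sesn, which is also in the TOR branch. The lipase gene Lip4 fell in both sexes. Its levels were 2.81, 2.87 and 3.25 normalised CPM in dsxRNAi females and 8.68, 8.38 and 5.63 in control females. They were 1.13, 1.69 and 3.55 in dsxRNAi males and 6.72, 9.22 and 10.1 in control males. The log2 change was -2.04 in males (adjusted p = 0.00264), a call that held without any 1 library. In females it was -1.34 (adjusted p = 0.0491), and this call was lost without any 1 of 9 libraries, which were the dsxRNAi females, control females 1 and 2, dsxRNAi male 2 and the control males, with adjusted p from 0.0538 to 0.17.

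The lipase gene bmm, which releases stored triglyceride, rose in males. Its levels were 176, 208 and 193 normalised CPM in dsxRNAi males and 101, 67.9 and 86.0 in control males, with a log2 change of 1.18 (adjusted p = 0.00402) that held without any 1 library. In females it rose by 0.89 (adjusted p = 0.0435), a call lost without any 1 of dsxRNAi females 1 and 2, control females 1 and 3, the dsxRNAi males and control male 3, with adjusted p from 0.0548 to 0.142. Myc, a growth regulator, rose in males by 0.43 (adjusted p = 0.0106). It was higher in females than males in controls by 1.67 (adjusted p = 1.1e-06) and under dsxRNAi by 1.08 (adjusted p = 6.66e-05). In the annotation 40.9% of the exon bases of Myc lie antisense to CG12535, which had 140 counts in all libraries together. On the same strand 20.3% are shared with lncRNA:CR44999, which had 57, so the Myc count is uncertain to that extent.

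For each gene the pattern over the 12 libraries was compared with that of all other tested genes of moderate or high level. The Pearson correlation of log2 CPM is given as a description, since the libraries share groups, depth and composition. The most similar genes to Ilp3 were CR45822 (r = 0.965) and Acf (0.962). For ImpL2 they were Tsp42El (0.956) and wun2 (0.955), and for chico they were CG9727 (0.987) and put (0.984). For foxo they were larp (0.94) and CG7139 (0.92), and for Thor they were CG44245 (0.957) and Buffy (0.912). For Tor they were Epg5 (0.919) and Drep2 (0.916), and for Tsc1 they were CG16863 (0.88) and CG7718 (0.869).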

How the data were processed

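Poly-A RNA of 12 midgut libraries was sequenced with a directional kit from 200 ng of RNA as 100 bp read pairs, per the labels' protocols. The authors deposited raw counts of reads for each gene. The submitters' processing notes name TopHat2 2.0.11, featureCounts and build dm6. Neither the strand setting nor the annotation release is stated in the labels or notes. Rows without a symbol, 171 in number with 2.17% of counts, were tested but not named. Positions and exon lengths came from Ensembl release 115, in which 17252 of 17558 identifiers were found, and the library columns left unused numbered 0.

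Counts were fitted with edgeR 4.0.16 in R 4.3.3: filterByExpr with a minimum count of 10, TMM scaling, robust quasi-likelihood and 4 group means over all 12 libraries. Intervals are 95%. For single levels a two-sided exact permutation test was run, whose smallest possible p for 3 against 3 libraries is 0.1, and the text rests on no p from it. Exact counting intervals for Ilp3 cover counting error only, since reads carry no molecular identifiers. The fit was tested on simulated data. Alternatives were RLE scaling, TMM without the 100 most abundant genes, DESeq2 1.42.0, other expression filters, a fit of only the groups compared, no robust estimation, a replicate block, an adjusted p of 0.01 and leaving out each library.

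The genes and lists were chosen with earlier results of these data known, and the accessory gland list was added after seeing the data. The text names all of the chosen genes, up to 6 called genes of each pathway list and comparison, and the 2 genes most correlated with each chosen gene among those whose mean log2 CPM was 1 or more. Python 3.11.15 with matplotlib 3.10.9 drew the figures.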

Additional observations from a re-analysis of the deposited data

Results flagged for a closer look

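The effect of dsxRNAi on slif, the amino acid transporter gene, differed between the sexes by -1.40 on the log2 scale (female minus male effect), and the difference itself was tested (edgeR quasi-likelihood, adjusted p = 0.0333). The change was 0.25 in females and 1.65 in males. The call of the difference was lost without any 1 of 7 libraries (adjusted p from 0.0635 to 0.101). It held in 12 of 20 alternatives. Of the 34 other TOR branch genes slif was the 1 called, a share of 2.94% where all tested genes gave 0.805%.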

How the results depend on the processing

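Whether the replicate numbers pair the libraries is not known. Of 18 same-number correlations 6 were over 0.1 (range -0.299 to 0.208). Those of dsxRNAi females with control males were 0.157, 0.156 and 0.208. Different-number correlations were not computed, so these values have no baseline. With a replicate block 328 genes were called in females, 1452 in males, 1994 between control sexes, 1468 between dsxRNAi sexes and 67 in the interaction, with 1, 4, 1, 2 and 0 of the chosen genes; Ilp3 lost its sex difference under dsxRNAi (adjusted p = 0.0657). Other counts in females were 576 with DESeq2, 221 in a fit of the groups compared and 160 at an adjusted p of 0.01, and 0 chosen genes with a minimum count of 50, which leaves Ilp3 untested. At 0.01 there were 670 genes and 1 chosen gene in males, 1018 and 0 between control sexes, 455 and 0 between dsxRNAi sexes, and 22 in the interaction. DESeq2 called 344 genes and 1 chosen gene in the interaction. Leaving out 1 library gave 204 to 374 genes in females, 856 to 1576 in males, 1325 to 2120 between control sexes, 637 to 1617 between dsxRNAi sexes and 33 to 127 in the interaction, with 1 to 1, 1 to 5, 0 to 2, 0 to 3 and 0 to 1 chosen genes. Except where an alternative's own construction shows it (fewer genes or libraries, a stricter threshold), the cause was not tested. Without 1 library the sign turned for values that were not called: in females chico (-0.0999 to 0.0879), Tor (-0.0562 to 0.0578), ImpL2 (-0.605 to 0.2) and Tsc1 (-0.064 to 0.0797), between control sexes Ilp3 (-1.81 to 2.61) and ImpL2 (-0.63 to 0.0563), between dsxRNAi sexes Thor (-0.168 to 0.149), and in the interaction Ilp3 (-1.25 to 3.16). The planned promoter motif counts were not run.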
